A study of Mus musculus with 9 samples.

Results

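Tetraspanins are membrane proteins that cross the lipid bilayer several times and assemble with one another and with partner proteins into membrane microdomains. Through these assemblies they hold integrins, immunoglobulin-superfamily proteins, claudins and proteases at the cell surface, and some of them sort cargo into endosomes and extracellular vesicles. Oligodendrocytes, which wrap axons in myelin, express several of them, and Tspan2, Cd9 and Cd81 have been found in myelin or at the oligodendrocyte surface. The genes described here are the 7 named tetraspanins Tspan2, Tspan3, Cd9, Cd63, Cd81, Cd82 and Cd151, found by their gene symbols, and all 7 were among the 11315 genes measured. They were named with earlier results of these data known.

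RNA sequencing was done on cells sorted by fluorescence from the brains of C57BL/6 mice at postnatal day 60. There were 3 libraries for each reporter. The labels give PDGFRa-GFP cells as oligodendrocyte progenitors, PLP-GFP cells as pre-myelinating and NDRG1-eGFP cells as myelinating oligodendrocytes. All 9 libraries share the strain, the age, the tissue and the sort on a green fluorescent reporter. How each reporter was built is not given in the sources used here. The labels do not say whether the 3 libraries of a group came from separate mice, so a p-value measures only the spread between these libraries, which may be technical.

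The level of a gene is given as the deposited normalized log2 value, which ran from 0.29 to 21.87 with a median of 10.57. Sequencing depth is unknown. Pearson correlations across genes were 0.931 to 0.982 within PDGFRa-GFP, 0.975 to 0.985 within PLP-GFP and 0.939 to 0.964 within NDRG1-eGFP. The markers followed the stage labels only in part. The 17 myelin sheath genes together held 106000 to 123000 ppm of a library's summed linear values in PDGFRa-GFP cells, 117000 to 120000 ppm in PLP-GFP cells and 128000 to 133000 ppm in NDRG1-eGFP cells. The 10 measured progenitor markers of 11 held 2600 to 3100, 2550 to 2690 and 2770 to 3020 ppm in the same order of groups, sums carried by the lineage-wide factors Olig1, Sox10 and Olig2 (mean log2 values of 16.69, 15.48 and 13.76). Pdgfra, a receptor listed here as a progenitor marker, averaged 6.63 in PDGFRa-GFP libraries. Its log2 fold change in PLP-GFP against PDGFRa-GFP was -3.92 (limma adjusted p = 0.0274). It was 2.99 in NDRG1-eGFP against PLP-GFP (0.0307) and -0.93 in NDRG1-eGFP against PDGFRa-GFP (0.529), which missed the threshold. Vcan, another progenitor marker, was lower in NDRG1-eGFP than in PDGFRa-GFP libraries (-4.04, limma adjusted p = 0.0352). Of the 10 progenitor markers, 2 were higher and 1 lower in NDRG1-eGFP against PLP-GFP. The lower one was Matn4 (-1.26, limma adjusted p = 0.0413), opposite to Pdgfra. In PLP-GFP against PDGFRa-GFP 0 were higher and 1 lower, as in NDRG1-eGFP against PDGFRa-GFP. Shares of all genes called higher and lower were 26.1% and 22.2%, 8.46% and 8.53%, and 10.7% and 10.4%, in that order. Of 11 mature oligodendrocyte markers, 5 were higher and 0 lower in NDRG1-eGFP against PLP-GFP, beside 26.1% and 22.2% of all genes. In PLP-GFP against PDGFRa-GFP, 0 were higher and 4 lower, beside 8.46% and 8.53% of all genes. At an unadjusted p under 0.05 the counts were 6 and 0, and 1 and 5, with no share of all genes given for that rule. The groups are called by their reporters here. PDGFRa-GFP replicate 3 stood apart for these genes: 5 of the 7 tetraspanins (Cd9, Cd63, Cd81, Cd82 and Cd151) had their highest value of the 9 libraries there, as did 19.0% of all genes, while Tspan2 had its lowest.

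Promoters are shown for the pair of tetraspanins that passed the test in a comparison of groups, Tspan3 and Cd63, and for Cd81, which had the highest level per transcript length. Each runs from 250 bases before to 50 bases after a RefSeq transcription start (GRCm38.p6, the assembly of mm10), and is written 5′ to 3′ on the gene's strand. Capitals mark every match on either strand to the motifs searched. These were the GC box, spelled GGGCGG, and the box named for its letters CCAAT. The TATA box was searched as the letters TATAAA. An E-box was searched as CACGTG, and a SOX-type motif as the letters ACAAAG.
Tspan3, chr9:56161021-56161320, minus strand: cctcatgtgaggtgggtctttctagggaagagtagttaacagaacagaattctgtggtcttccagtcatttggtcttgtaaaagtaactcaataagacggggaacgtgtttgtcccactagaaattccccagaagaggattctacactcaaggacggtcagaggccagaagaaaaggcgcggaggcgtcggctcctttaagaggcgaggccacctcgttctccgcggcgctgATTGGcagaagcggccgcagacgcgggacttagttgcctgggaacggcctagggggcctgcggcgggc
Cd63, chr10:128909095-128909394, plus strand: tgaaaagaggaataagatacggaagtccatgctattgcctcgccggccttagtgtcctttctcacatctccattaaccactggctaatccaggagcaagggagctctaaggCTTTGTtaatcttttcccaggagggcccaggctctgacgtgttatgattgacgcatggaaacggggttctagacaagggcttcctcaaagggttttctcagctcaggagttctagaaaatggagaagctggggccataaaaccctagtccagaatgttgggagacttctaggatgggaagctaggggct
Cd81, chr7:143052500-143052799, plus strand: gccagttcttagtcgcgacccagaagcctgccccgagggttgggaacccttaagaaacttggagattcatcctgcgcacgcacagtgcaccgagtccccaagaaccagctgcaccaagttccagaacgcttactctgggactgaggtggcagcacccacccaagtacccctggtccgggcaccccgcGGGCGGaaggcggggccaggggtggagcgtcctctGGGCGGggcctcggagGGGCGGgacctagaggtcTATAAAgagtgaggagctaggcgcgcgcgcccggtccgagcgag
The Tspan3 window held 19 CG dinucleotides and 1 match, a CCAAT box on the opposite strand. The Cd63 window held 6 CG dinucleotides and 1 match, a SOX-type motif on the opposite strand. The Cd81 window held 23 CG dinucleotides, 3 GC boxes and the letters TATAAA, which began 6 bases after the transcription start. Of 32851 RefSeq promoters of the same length, 35.7% held a GC box, 37.4% a CCAAT box, 13.6% a TATA box, 7.15% an E-box and 18.7% the SOX-type motif, and the median number of CG dinucleotides was 7. A match describes the letters only.

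All of these genes but Cd151 were among the more abundant transcripts of every library. On the scale of the log2 value per kilobase of transcript, averaged over the 9 libraries, Cd81 had the highest level at 16.58. Tspan2 followed at 15.53 and Cd9 at 15.43, a gap smaller than the mean within-group SD of Cd9, 0.27. Then came Cd82 at 14.82, Tspan3 at 14.52 and Cd63 at 13.69. Cd151 lay far below the others at 8.04. Ranked by value among all genes of a library, Tspan2 was between 16th and 29th and Cd81 between 20th and 45th, whereas Cd151 was between 6245th and 9329th. The 7 genes together were 0.793% to 1.008% of a library's summed linear values for PDGFRa-GFP, 0.802% to 0.911% for PLP-GFP and 0.809% to 0.97% for NDRG1-eGFP.

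**Figure D1:**
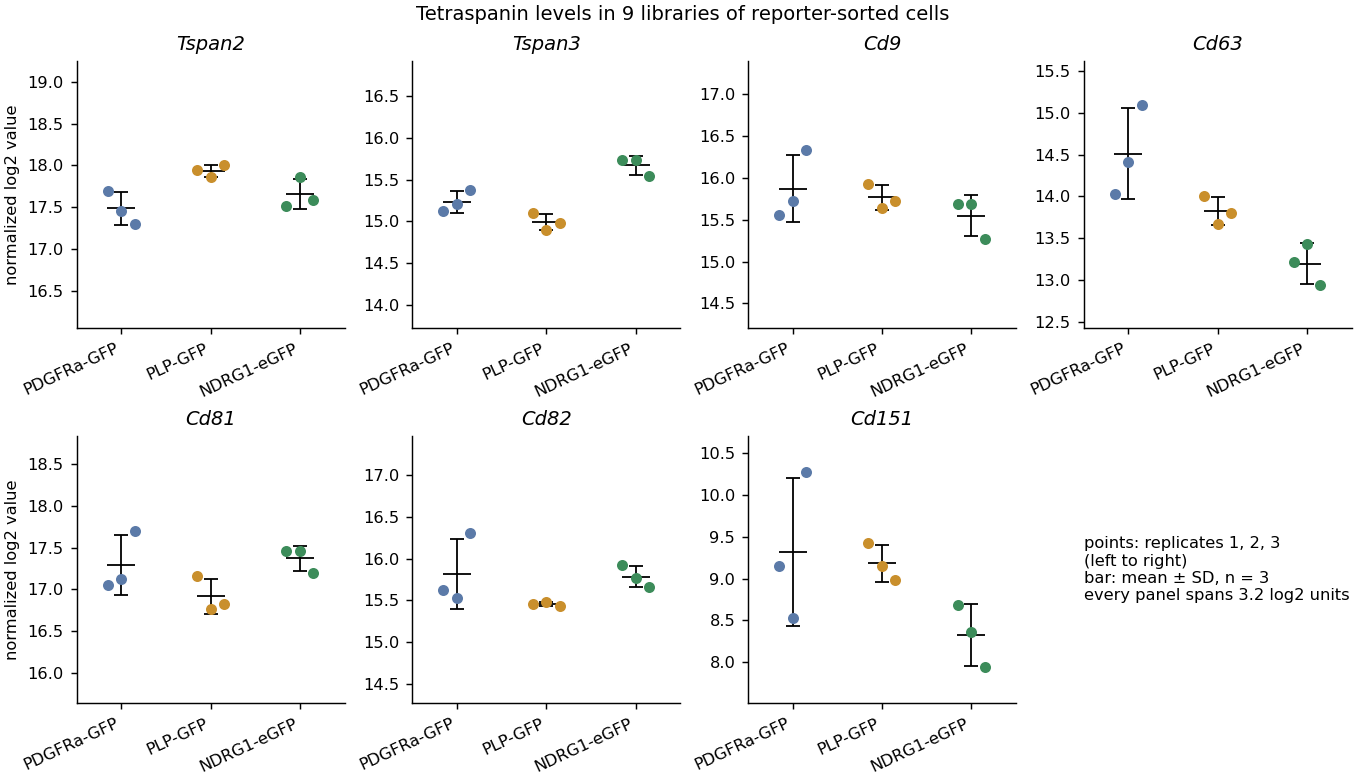
Normalized log2 value (vertical axis) of each of the 7 tetraspanin genes in the 9 libraries, by reporter group in the order of the labelled stages; points are libraries, bars the mean ± SD of 3. Tspan3 is highest in the 3 NDRG1-eGFP libraries, Cd63 is lowest there, and PDGFRa-GFP replicate 3 holds the highest point for Cd9, Cd63, Cd81, Cd82 and Cd151.

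Between NDRG1-eGFP and PLP-GFP libraries, 1 of the 7 genes passed the limma test as higher (Tspan3) and 0 as lower, at an adjusted p under 0.05 over all genes. Of all 11315 genes, 26.1% were higher and 22.2% lower by the same rule, 48.3% in all, so the members' share called was not above that of the table. At an unadjusted p under 0.05 the count was 2 higher and 2 lower. That rule is looser, and no share of all genes is given for it here or below. Unadjusted counts are therefore not to be set against the shares at an adjusted p. The libraries of the groups did not overlap for 5 of the 7 genes, with 3 above and 2 below, and the share over all genes was 66.4%. Between PLP-GFP and PDGFRa-GFP libraries, 0 of the 7 passed in either direction by limma, beside 8.46% of all genes higher and 8.53% lower, 17.0% in all. At an unadjusted p under 0.05 there was 1 higher (Tspan2) and 1 lower (Cd63), and 4 of the 7 did not overlap (1 above, 3 below), against 42.3% of all genes. Between NDRG1-eGFP and PDGFRa-GFP libraries, Tspan3 passed as higher and Cd63 as lower, beside 10.7% and 10.4% of all genes, 21.1% in all. These were also the 2 genes without overlap, against 35.3% of all genes. The comparisons share their groups, so their counts are not independent. In bulk libraries, fewer cells that express a gene and less of its RNA per cell cannot be told apart.

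Tspan2 encodes a tetraspanin that is enriched in oligodendrocytes of the rodent brain. The 3 PDGFRa-GFP libraries held Tspan2 at log2 values of 17.70, 17.46 and 17.30, those of PLP-GFP at 17.94, 17.86 and 18.00, and those of NDRG1-eGFP at 17.52, 17.86 and 17.59. All 3 PLP-GFP libraries lay above the 3 PDGFRa-GFP libraries, and one NDRG1-eGFP library reached the lowest PLP-GFP value. PLP-GFP averaged 17.93 ± 0.07 and PDGFRa-GFP 17.49 ± 0.20 (SD, n = 3 each), a log2 fold change of 0.45 (SE 0.14, 95% interval 0.13 to 0.77, limma adjusted p = 0.0572) that missed the threshold. It passed in 1 of 9 leave-one-out fits, the one without PDGFRa-GFP replicate 1 (0.55, limma adjusted p = 0.0321). With each library's trend of value on transcript length removed, it was 0.18 and missed the threshold. NDRG1-eGFP averaged 17.66 ± 0.18, and its log2 fold changes of -0.28 against PLP-GFP (limma adjusted p = 0.136) and 0.17 against PDGFRa-GFP (0.420) also missed it. Tspan2 lies at chr3:102734529-102801513 on the plus strand (GENCODE M21, GRCm38).

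Tspan3 encodes a tetraspanin that forms a complex with claudin-11 and integrin beta 1, and it was the gene of the 7 that was higher in NDRG1-eGFP cells. Log2 values of Tspan3 in PDGFRa-GFP were 15.12, 15.21 and 15.38, while PLP-GFP gave 15.10, 14.90 and 14.98 and NDRG1-eGFP gave 15.74, 15.74 and 15.54. Every NDRG1-eGFP library lay above all 6 others. NDRG1-eGFP averaged 15.68 ± 0.11 and PLP-GFP 15.00 ± 0.10 (SD, n = 3 each), a 1.6-fold difference (log2 0.68, SE 0.12, 95% interval 0.42 to 0.94, limma adjusted p = 0.00122). This call held with each of the 9 libraries left out in turn, at 0.63 to 0.75. Against PDGFRa-GFP, which averaged 15.24 ± 0.13, the log2 fold change was 0.44 (SE 0.12, limma adjusted p = 0.0263), and PLP-GFP and PDGFRa-GFP did not differ beyond the threshold (-0.24, 0.171).

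Those Tspan3 calls were lost when the trend on transcript length was removed. Each library had its own trend of value on length, and at the 1716 bases of Tspan3 the fitted trend was -0.12, -0.04 and 0.21 for PDGFRa-GFP, -0.20, -0.32 and -0.28 for PLP-GFP and 0.37, 0.34 and 0.23 for NDRG1-eGFP. With each library's trend removed, the Tspan3 log2 fold change was 0.10 against PLP-GFP (limma adjusted p = 0.407) and 0.14 against PDGFRa-GFP (0.321), and neither passed. The call against PDGFRa-GFP was also lost with any of 5 libraries left out: PDGFRa-GFP replicate 1 (0.38, adjusted p = 0.0841), PDGFRa-GFP replicate 2 (0.42, 0.0694), PLP-GFP replicate 3 (0.44, 0.0542), NDRG1-eGFP replicate 1 (0.40, 0.0854) and NDRG1-eGFP replicate 2 (0.41, 0.0844). Tspan3 lies at chr9:56131725-56165477 on the minus strand (GENCODE M21, GRCm38).

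**Figure D2:**
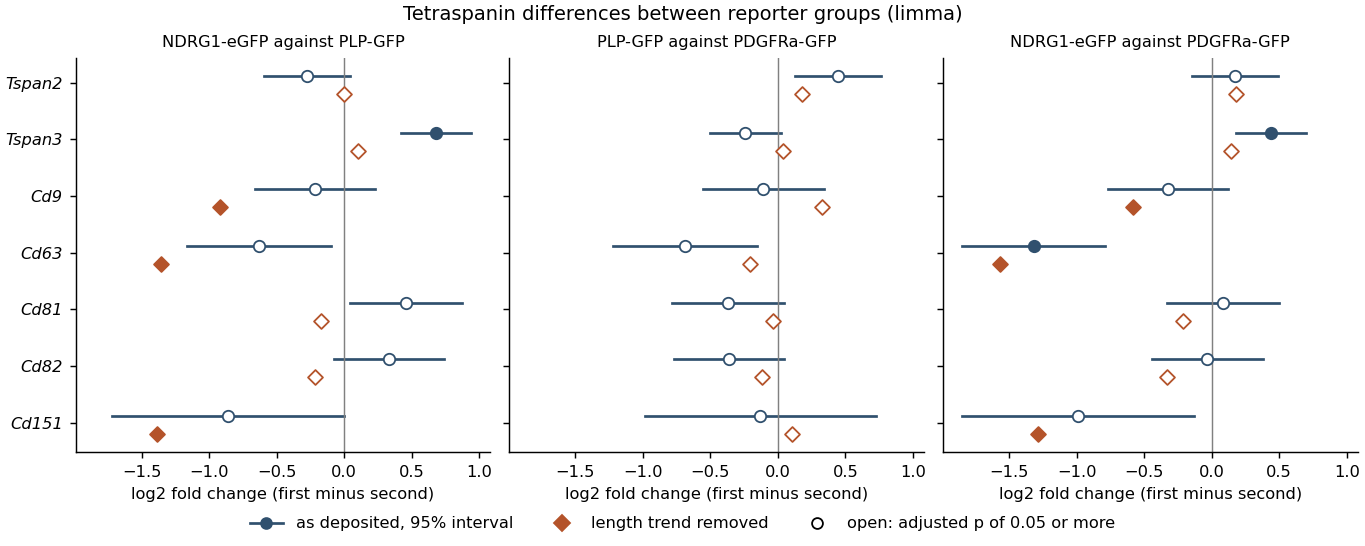
Log2 fold change (horizontal axis) of each tetraspanin in 3 comparisons, as deposited with its 95% interval (circles) and with each library's length trend removed (diamonds); filled marks have a limma adjusted p under 0.05. Tspan3 is filled only as deposited, at 0.68 and 0.44, and Cd63 is filled under both treatments in the NDRG1-eGFP against PDGFRa-GFP panel, at -1.32 and -1.57.

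Of the named partners of Tspan3, Cldn11 was lower in NDRG1-eGFP cells and Itgb1 missed the threshold. Cldn11 encodes claudin-11, the tight junction protein of myelin. For Cldn11, PDGFRa-GFP read 16.03, 16.24 and 16.63 on the log2 scale, PLP-GFP read 16.04, 15.55 and 15.80, and NDRG1-eGFP read 15.60, 14.95 and 15.12, so each NDRG1-eGFP library lay below all PDGFRa-GFP libraries. Cldn11 was lower in NDRG1-eGFP libraries than in those of PLP-GFP (log2 -0.58, SE 0.21, limma adjusted p = 0.0397, held in 5 of 9 leave-one-out fits and lost without PLP-GFP replicate 1 or 3 or NDRG1-eGFP replicate 2 or 3; -1.11 with the length trend removed) and than in PDGFRa-GFP libraries (-1.08, SE 0.21, adjusted p = 0.00574, held in 9 of 9). Itgb1, the beta 1 integrin subunit, averaged 13.80 ± 0.13 in PDGFRa-GFP, 13.94 ± 0.16 in PLP-GFP and 14.01 ± 0.07 in NDRG1-eGFP libraries (SD, n = 3 each), and missed the threshold in all 3 comparisons.

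Cd9 and Cd81 are closely linked tetraspanins that share the partner Igsf8. The 3 PDGFRa-GFP libraries held Cd9 at log2 values of 15.56, 15.73 and 16.33, those of PLP-GFP at 15.93, 15.64 and 15.73, and those of NDRG1-eGFP at 15.69, 15.69 and 15.27. The 3 groups overlapped throughout. Their means were 15.87 ± 0.41, 15.77 ± 0.15 and 15.55 ± 0.24, and none of the log2 fold changes passed (NDRG1-eGFP against PLP-GFP -0.22, SE 0.20, limma adjusted p = 0.400). With the length trend removed, Cd9 was lower in NDRG1-eGFP libraries than in those of PLP-GFP (-0.92, adjusted p = 3.43e-04) and than in PDGFRa-GFP libraries (-0.59, 0.00815). Cd9 shares 15.5% of its 50-base windows with other loci, mainly Gm26728 on the opposite strand.

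Cd81 encodes a widely expressed tetraspanin of the cell surface. Log2 values of Cd81 in PDGFRa-GFP were 17.05, 17.13 and 17.70, while PLP-GFP gave 17.16, 16.77 and 16.83 and NDRG1-eGFP gave 17.46, 17.46 and 17.20. Every NDRG1-eGFP library lay above the PLP-GFP libraries, and both overlapped PDGFRa-GFP. The log2 fold change of NDRG1-eGFP against PLP-GFP was 0.45 (SE 0.19, 95% interval 0.04 to 0.87, limma adjusted p = 0.0671). It passed without PDGFRa-GFP replicate 3 (0.45, 0.0103) or PLP-GFP replicate 1 (0.58, 0.0455), and with the length trend removed it was -0.17.

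Igsf8, the immunoglobulin-superfamily protein that binds Cd9 and Cd81, was higher in NDRG1-eGFP cells. For Igsf8, PDGFRa-GFP read 14.46, 14.58 and 14.73 on the log2 scale, PLP-GFP read 14.60, 14.11 and 14.29, and NDRG1-eGFP read 15.35, 14.98 and 15.06, which lay above all others. The log2 fold change was 0.80 against PLP-GFP (SE 0.15, limma adjusted p = 0.00213, kept in all 9 leave-one-out fits and, at 0.62, with the length trend removed) and 0.54 against PDGFRa-GFP (SE 0.15, adjusted p = 0.0329). The second was kept in 3 of 9 such fits, those without PDGFRa-GFP replicate 3 or PLP-GFP replicate 1 or 2, and was lost with the length trend removed (0.35, adjusted p = 0.159).

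Cd82 is known as a suppressor of tumour metastasis in human cancers. The 3 PDGFRa-GFP libraries held Cd82 at log2 values of 15.62, 15.53 and 16.30, those of PLP-GFP at 15.46, 15.48 and 15.43, and those of NDRG1-eGFP at 15.92, 15.77 and 15.66. The PLP-GFP libraries lay below all others, with a mean of 15.45 ± 0.02 (SD, n = 3). The log2 fold change of NDRG1-eGFP against PLP-GFP was 0.33 (SE 0.18, limma adjusted p = 0.163), and it passed without PDGFRa-GFP replicate 3 (0.33, 0.0102).

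Cd151 encodes a tetraspanin that binds laminin-binding integrins, and it was the low member of the 7. Log2 values of Cd151 in PDGFRa-GFP were 9.15, 8.53 and 10.27, while PLP-GFP gave 9.42, 9.15 and 8.98 and NDRG1-eGFP gave 8.68, 8.36 and 7.94. All 3 NDRG1-eGFP libraries lay below the PLP-GFP libraries but overlapped PDGFRa-GFP. The log2 fold change was -0.86 (SE 0.39, 95% interval -1.72 to -0.00, limma adjusted p = 0.0895) against PLP-GFP and -0.99 (SE 0.39, adjusted p = 0.0941) against PDGFRa-GFP. The first passed without PDGFRa-GFP replicate 2 (-0.86, 0.0452) or replicate 3 (-0.86, 0.0107), and the second without PDGFRa-GFP replicate 2 (-1.38, 0.0285). With the length trend removed both passed, at -1.39 (0.0127) against PLP-GFP and -1.29 (0.0339) against PDGFRa-GFP. Cd151 shares 7.9% of its windows with Gm10575, which overlaps it on the opposite strand.

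Cd63, a tetraspanin of late endosomes, lysosomes and exosomes, was lower in NDRG1-eGFP than in PDGFRa-GFP cells. For Cd63, PDGFRa-GFP read 14.03, 14.41 and 15.10 on the log2 scale, PLP-GFP read 14.00, 13.67 and 13.80, and NDRG1-eGFP read 13.21, 13.43 and 12.94. Neither NDRG1-eGFP nor PLP-GFP libraries overlapped the PDGFRa-GFP libraries, and NDRG1-eGFP lay below PLP-GFP. NDRG1-eGFP averaged 13.19 ± 0.25 and PDGFRa-GFP 14.51 ± 0.54 (SD, n = 3 each), a ratio of 0.401 (log2 -1.32, SE 0.24, 95% interval -1.85 to -0.79, limma adjusted p = 0.00427). The call held in all 9 leave-one-out fits, at -1.56 to -1.03, and with the length trend removed (-1.57, adjusted p = 4.53e-05).

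The intermediate steps of Cd63 missed the threshold. PLP-GFP averaged 13.82 ± 0.17, and NDRG1-eGFP against PLP-GFP gave a log2 fold change of -0.63 (SE 0.24, limma adjusted p = 0.05004). It passed without PDGFRa-GFP replicate 1 (adjusted p = 0.0244) or replicate 3 (0.00392), both at -0.63, and with the length trend removed it was -1.36 (1.06e-04). PLP-GFP against PDGFRa-GFP gave -0.69 (SE 0.24, adjusted p = 0.0711). This step passed in 1 of 9 leave-one-out fits, the one without PDGFRa-GFP replicate 1 (-0.93, 0.0223). With the length trend removed this step was -0.21 and missed the threshold. Cd63 shares 36.5% of its windows with the processed pseudogene Cd63-ps, so its level is uncertain to that extent. It lies at chr10:128900989-128912822 on the plus strand (GENCODE M21, GRCm38). Sums of other cell types' markers also differed between groups: 8 fibroblast-like markers of 11 held 130 to 253 ppm for PDGFRa-GFP, 2.99 to 7.54 ppm for PLP-GFP and 66.3 to 202 ppm for NDRG1-eGFP. For 11 microglial markers of 12 the sums were 67.9 to 106, 49.4 to 73.6 and 107 to 152 ppm in the same order. No marker was at 0, but neither was any gene, as the lowest deposited value was 0.29. This does not show that each marker was detected. Between NDRG1-eGFP and PDGFRa-GFP, where Cd63 was called, the fibroblast-like sums overlapped. There 0 of the 8 markers passed the limma test (0 at an unadjusted p under 0.05). Of the 11 microglial markers, 2 were higher and 0 lower by limma (6 and 0 unadjusted). The shares of all genes called at an adjusted p were 10.7% higher and 10.4% lower. The part of microglial RNA in the Cd63 difference was not tested.

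The wider tetraspanin family was mostly higher in NDRG1-eGFP than in PLP-GFP libraries where it was called. Of 24 other tetraspanins listed, 17 were measured, and 9 were higher and 1 lower, beside 26.1% and 22.2% of all genes, with a median log2 fold change of 0.61 against 0.08 over all genes. Leaving out PLP-GFP replicate 3 or NDRG1-eGFP replicate 1 brought the higher count to 5. Of all 11315 genes, 2143 and 2246 were higher in those fits, against 2953 in the main fit. With the length trend removed the count was 8, beside 1580 of 11270 genes higher. In PLP-GFP against PDGFRa-GFP libraries, 0 were higher by limma and 4 lower (0 and 6 at an unadjusted p under 0.05), beside 8.46% and 8.53% of all genes, with a median of -0.34 against 0.03 over all genes. The lower count was 1 without PLP-GFP replicate 2 or 3, and 2 without PDGFRa-GFP replicate 2 or PLP-GFP replicate 1. Lower calls over all genes also fell, from 965 to 186 without PLP-GFP replicate 2 and 225 without replicate 3. They were 383 without PDGFRa-GFP replicate 2 and 723 without PLP-GFP replicate 1. In NDRG1-eGFP against PDGFRa-GFP libraries, 2 were higher and 1 lower, beside 10.7% and 10.4% of all genes. Without PDGFRa-GFP replicate 3, 5 were higher and 0 lower. Calls over all 11315 genes rose there too, to 2804 higher and 1817 lower, against 1207 and 1176.

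Tspan13 had the smallest adjusted p of the family. The 3 PDGFRa-GFP libraries held Tspan13 at log2 values of 10.35, 9.60 and 9.85, those of PLP-GFP at 6.74, 7.10 and 6.85, and those of NDRG1-eGFP at 9.85, 10.66 and 9.63. The PLP-GFP libraries lay far below both other groups, which overlapped each other. The log2 fold change was 3.15 for NDRG1-eGFP against PLP-GFP (SE 0.29, limma adjusted p = 3.37e-05) and -3.03 for PLP-GFP against PDGFRa-GFP (SE 0.29, adjusted p = 4.32e-04), and both held in all 9 leave-one-out fits. Tspan8 and Tspan11, chosen after their values were seen, were also lowest in PLP-GFP. Tspan11 averaged 8.67 ± 0.86 in PDGFRa-GFP, 4.84 ± 0.90 in PLP-GFP and 8.18 ± 1.64 in NDRG1-eGFP libraries (SD, n = 3 each), and was 6.28 in NDRG1-eGFP replicate 3, the NDRG1-eGFP library with the lowest fibroblast-like sum. The part of such cells in these genes was not tested.

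**Figure D3:**
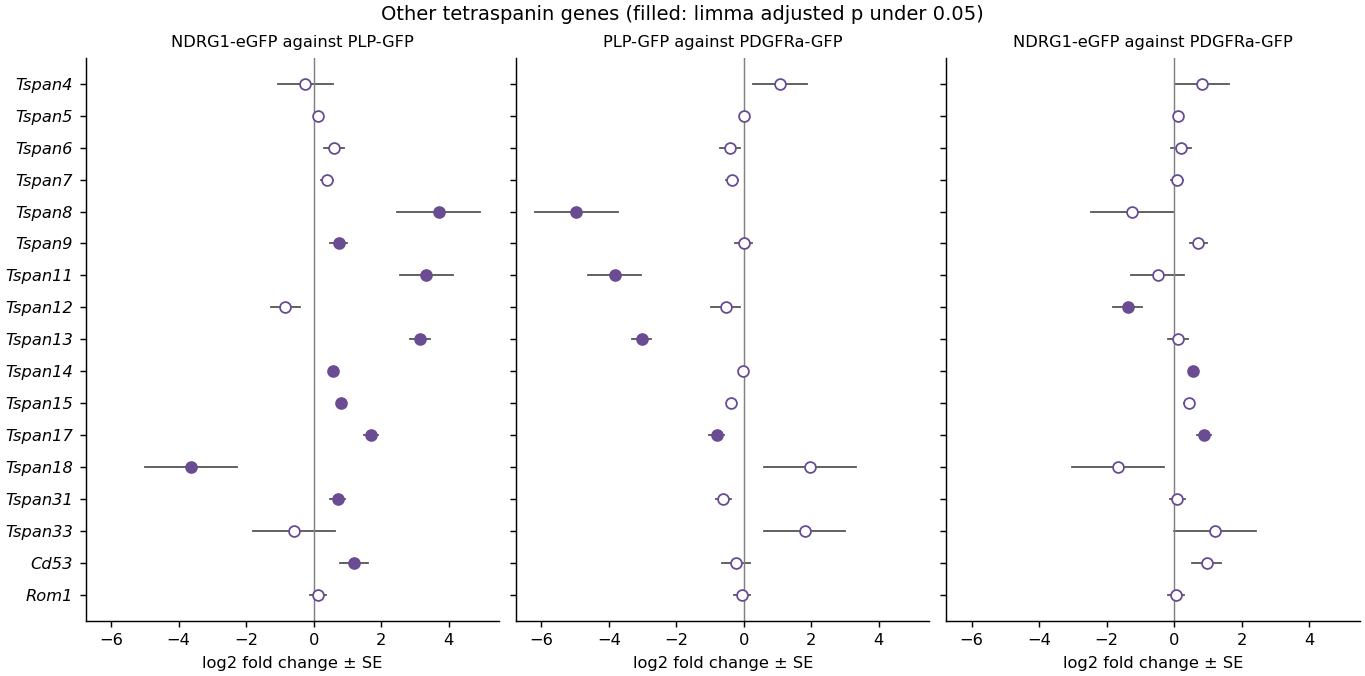
Log2 fold change ± SE (horizontal axis) of the 17 other measured tetraspanins in 3 comparisons; filled points have a limma adjusted p under 0.05. In NDRG1-eGFP against PLP-GFP 9 filled points lie right of 0 and 1 left of it, and in PLP-GFP against PDGFRa-GFP 4 lie left and 0 right.

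Several tetraspanins bind the protease Adam10 and promote its exit from the endoplasmic reticulum. Of that group Tspan14, Tspan15 and Tspan17 were higher in NDRG1-eGFP cells than in those of PLP-GFP, while Adam10 was lower. Tspan14, a member of that group, was 14.23, 14.29 and 14.07 in NDRG1-eGFP libraries, above all PLP-GFP libraries at 13.63, 13.58 and 13.65 and all PDGFRa-GFP libraries at 13.67, 13.54 and 13.71. Its log2 fold change was 0.58 against PLP-GFP (SE 0.11, limma adjusted p = 0.00185) and 0.55 against PDGFRa-GFP (SE 0.11, adjusted p = 0.00641), each held in all 9 leave-one-out fits. With the length trend removed these were 0.27 (0.0427) and 0.31 (0.0423). Tspan15 and Tspan17, of the same group, were also higher in NDRG1-eGFP than in PLP-GFP libraries, by 0.82 (SE 0.14, adjusted p = 0.00132) and 1.69 (SE 0.21, adjusted p = 2.07e-04), and by 0.86 and 1.08 with the length trend removed. Tspan5 and Tspan33 of that group missed the threshold in all 3 comparisons. For Tspan5 the log2 fold change of NDRG1-eGFP against PLP-GFP was 0.13, and it passed at 0.72 with the length trend removed (limma adjusted p = 6.00e-04). Tspan10 was not measured.

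Adam10 itself was 13.06, 12.51 and 12.28 for PDGFRa-GFP, 13.55, 13.83 and 13.71 for PLP-GFP, and 12.50, 12.69 and 12.71 for NDRG1-eGFP. PLP-GFP lay above both other groups, so Adam10 was lower in NDRG1-eGFP libraries than in those of PLP-GFP (log2 -1.06, SE 0.18, limma adjusted p = 0.00122) and higher in PLP-GFP than in PDGFRa-GFP libraries (1.08, SE 0.18, adjusted p = 0.00812). Zdhhc2, the palmitoyltransferase that acts on Cd9 and Cd151, was likewise highest in PLP-GFP, with log2 fold changes of -1.19 for NDRG1-eGFP against PLP-GFP (SE 0.22, adjusted p = 0.00178) and 1.69 for PLP-GFP against PDGFRa-GFP (SE 0.22, adjusted p = 0.00219). Itga7, a laminin-binding integrin subunit, was near the lowest values in NDRG1-eGFP libraries (0.32 to 1.55) and at 5.47 to 7.89 in PLP-GFP libraries, with a log2 fold change of -5.64 (SE 1.2, adjusted p = 0.00361). Ptgfrn was not measured, and of the 10 partners measured, of 12 listed, NDRG1-eGFP against PLP-GFP had 2 higher and 4 lower, beside 26.1% and 22.2% of all genes.

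**Figure D4:**
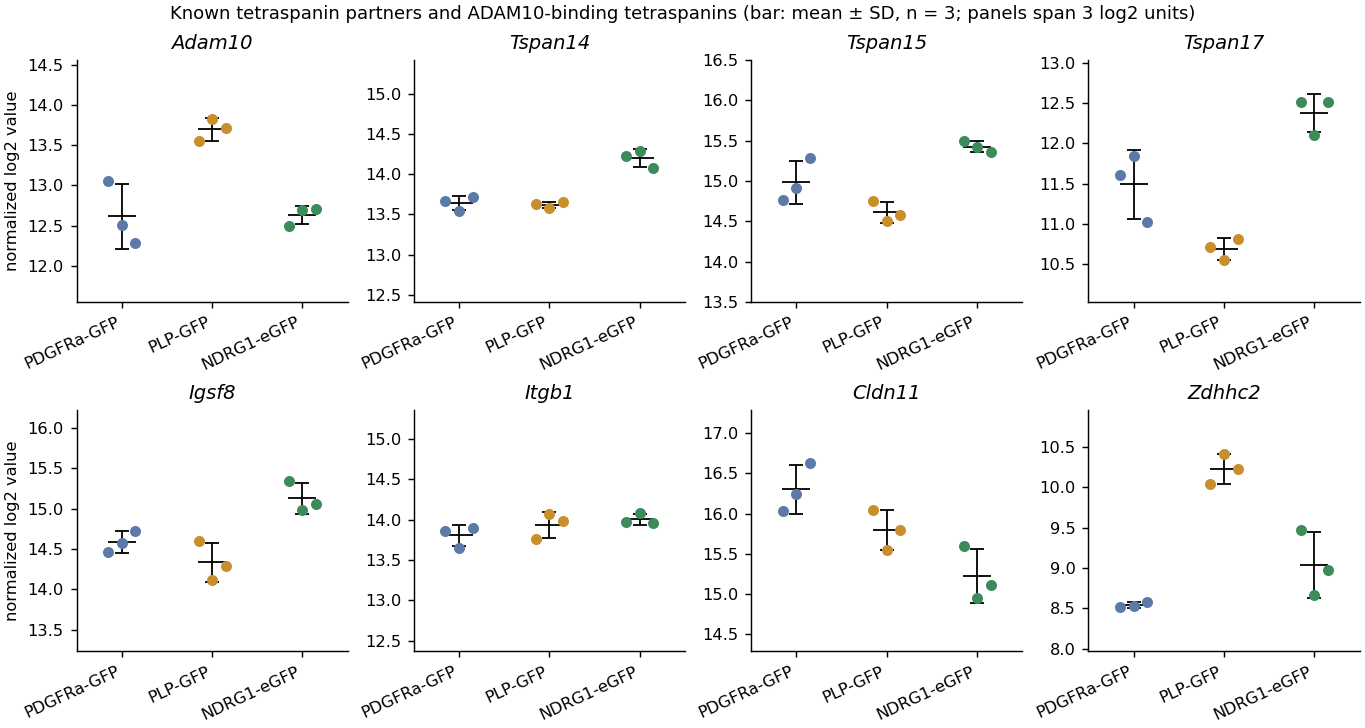
Normalized log2 value (vertical axis) of Adam10, the Adam10-binding tetraspanins Tspan14, Tspan15 and Tspan17, and the partners Igsf8, Itgb1, Cldn11 and Zdhhc2 in the 9 libraries by reporter group; points are libraries, bars the mean ± SD of 3. Adam10 and Zdhhc2 peak in PLP-GFP libraries, where Tspan15 and Tspan17 are lowest.

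Genes of the compartments where Cd63 resides were called in both directions, at a share near that of all genes. Of 17 measured genes of the multivesicular body and exosome list, NDRG1-eGFP against PLP-GFP had 4 higher and 3 lower, beside 26.1% and 22.2% of all genes. Their median log2 fold change was 0.02. Removing the length trend left 0 higher and 3 lower, beside 1580 and 1848 of 11270 genes, so calls fell over the whole table too. Rab35, which regulates endosome recycling and exosome release, was lower in NDRG1-eGFP libraries against PLP-GFP (-1.61, SE 0.22, limma adjusted p = 3.31e-04) and against PDGFRa-GFP (-1.21, SE 0.22, adjusted p = 0.00411). Chmp4b, an ESCRT-III subunit, was also lower against PLP-GFP (-1.09, SE 0.20, adjusted p = 0.00149, and -1.69 with the length trend removed), whereas Chmp2a, another ESCRT-III subunit, was higher (0.85, SE 0.14, adjusted p = 9.27e-04), a call lost with the length trend removed (0.09). Sdcbp, or syntenin, which binds Cd63, missed the threshold throughout (0.31 against PLP-GFP, adjusted p = 0.203).

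Of the 12 late endosome and lysosome membrane genes, NDRG1-eGFP against PLP-GFP had 4 higher and 1 lower, beside 26.1% and 22.2% of all genes. With the length trend removed there were 2 higher and 2 lower, beside 1580 and 1848 of 11270 genes. In the main fit Npc2, a lysosomal cholesterol carrier, was higher (0.90, SE 0.16, limma adjusted p = 0.00128). Rab7, the small GTPase of late endosomes, was lower there (-0.80, SE 0.12, adjusted p = 6.97e-04). Rab7 was at -1.22 with the length trend removed, and shares 16.2% of its windows with other loci. Of the 17 myelin sheath genes, which include Tspan2, 5 were higher and 2 lower in the same comparison, beside 26.1% and 22.2% of all genes. With that trend removed 2 were higher and 1 lower, beside 1580 and 1848 of 11270 genes. Mog and Opalin, which encode myelin membrane glycoproteins, were higher by 0.94 (SE 0.13, adjusted p = 4.00e-04) and 1.13 (SE 0.18, adjusted p = 8.65e-04). With the length trend removed they were at 0.36 (0.0417) and 0.59 (0.0229).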

How the data were processed

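Gene-level values came from 9 libraries of cells sorted by fluorescence. Each deposited file holds log2 normalized values, per the file headers and values, whose distribution was nearly identical between libraries. BWA, DESeq2 1.2.5 and mm10 are named per the submitters' processing notes, without their roles. Raw counts were not analysed here, so depth is unknown. The deposited log2 values were fitted as they stand with limma 3.58.1 (limma-trend, R 4.3.3), as 1 model of the 9 libraries with reporter group as the only factor. P-values were two-sided and adjusted by Benjamini-Hochberg over 11315 genes, with calls under 0.05. Genes had to reach 1 in no fewer than 3 libraries, which removed 0 genes. The fit was tested on simulated data. Transcript length, coordinates and 50-base windows shared with other loci came from GENCODE M21 (GRCm38), which annotated 11270 genes, and promoters from RefSeq. The length trend was removed per library by loess (span 0.3).

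The members, lists and tests were chosen with earlier results of these data known. Named besides the 7 members were up to 4 genes per pathway list with the smallest adjusted p, 6 known partners, and the 3 genes most correlated with each member. Marker lists covered progenitors, mature oligodendrocytes, fibroblast-like cells, microglia, astrocytes, endothelium, pericytes and neurons. Groups of 3 libraries allow no exact permutation p under 0.1, so none was run. Alternatives changed the scaling, added constant, filter, groups fitted, replicate block, length trend, shared genes, threshold, or left out a library.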

Additional observations from a re-analysis of the deposited data

How the results depend on the processing

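Higher and lower counts of the 7 genes are given as alternatives to 1 and 0 (NDRG1-eGFP against PLP-GFP), 0 and 0 (PLP-GFP against PDGFRa-GFP), and 1 and 1 (NDRG1-eGFP against PDGFRa-GFP). Against PLP-GFP, NDRG1-eGFP had 3 higher and 2 lower with only those groups fitted, beside 3704 and 3056 of all 11315 genes. It had 0 higher and 3 lower with the length trend removed, beside 1580 and 1848 of 11270 genes. The main fit called 2953 and 2507 of all genes. NDRG1-eGFP also had 0 higher with a minimum of 1 on the absolute log2 fold change. Its lower count was 1 with recentring on the median ratio, a linear constant of 5 or a mean of at least 8. PLP-GFP had 1 higher than PDGFRa-GFP with a mean of at least 8. Against PDGFRa-GFP, NDRG1-eGFP had 0 higher with recentring on the median ratio, only those groups fitted, the length trend removed, that minimum fold change or an adjusted p under 0.01. It had 3 lower with the length trend removed, where 493 of all genes were higher and 1120 lower. It had 0 lower with shared genes left out, where Cd63 was not tested. Leaving out 1 library gave 1 to 3 higher and 0 to 2 lower, 0 to 1 and 0 to 1, and 0 to 1 and 1 to 2, in the same order of comparisons. Without PDGFRa-GFP replicate 3, calls over all genes in NDRG1-eGFP against PLP-GFP also rose, to 3783 higher and 3125 lower. Recentring moved the median of all genes in the last comparison to 0.04, against 0.14, and its calls to 591 higher and 1362 lower, against 1207 and 1176. Apart from fewer genes tested, the cause was not tested.

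Directions of members that were not called reversed as follows. With recentring, Cd81 was at -0.018 in NDRG1-eGFP against PDGFRa-GFP. With the length trend removed, Tspan2 (0.002), Cd81 (-0.173) and Cd82 (-0.214) reversed in NDRG1-eGFP against PLP-GFP, Tspan3 (0.037), Cd9 (0.33) and Cd151 (0.104) in PLP-GFP against PDGFRa-GFP, and Cd81 (-0.21) in NDRG1-eGFP against PDGFRa-GFP. Leaving out 1 library gave -0.039 to 0.286 for Cd81 and -0.176 to 0.211 for Cd82 in NDRG1-eGFP against PDGFRa-GFP, and -0.265 to 0.123 for Cd9 and -0.524 to 0.347 for Cd151 in PLP-GFP against PDGFRa-GFP.

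Same-numbered libraries of different groups correlated at -0.234 to 0.094 in their deviations from group means over 9 pairs. Differently numbered libraries correlated at -0.134 to 0.225. These values cannot show whether same-numbered libraries were collected or processed together, so whether the numbers pair the libraries is unknown. With a replicate block, NDRG1-eGFP had 0 members higher than PDGFRa-GFP, and calls over all genes were 2473 higher and 2207 lower, 338 and 384, and 457 and 864. The block left 5 myelin sheath genes higher and 0 lower in NDRG1-eGFP against PLP-GFP. Depth is unknown, so the precision of low genes such as Cd151 cannot be set.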

Other observations

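Within groups the 6 tetraspanins other than Tspan2 varied together. Their deviations from the group means over the 9 libraries correlated pairwise at 0.69 to 0.97, and Tspan2 correlated with the 6 at -0.58 to -0.28. The libraries share their processing, and each has its own trend on transcript length, so these values are descriptions only. Cd9 and Cd63 correlated at 0.97 in these deviations. PDGFRa-GFP replicate 3 held the highest value of the 9 libraries for 5 of the 6. There Cd63 was 15.10 against a group mean of 14.51, and Cd151 was 10.27 against 9.31. The correlations were not computed without that library.

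The genes whose values over the 9 libraries were most like each member's, among 5570 genes with a mean at or above the median, are given by Pearson r. For Tspan3 they were Bpgm (0.997), Zmat5 (0.994) and Manbal (0.994), and Bpgm encodes bisphosphoglycerate mutase. For Tspan2 they were Tspyl4 (0.975), Ccdc47 (0.966) and Rdx (0.951), the last encoding radixin, which links actin to the membrane. Cd63 was most like Trmt112 (0.985), Gabarap (0.981), an autophagy protein, and Prdx1 (0.978), a peroxiredoxin. Among the most alike genes of all 7 members, Trmt112 shares 68.7% of its windows with other loci. The share is 55.0% for Rac1, 39.3% for Zmat5, 38.0% for Tsen34 and 37.0% for Tspyl4. It is 24.8% for Ranbp1, 23.6% for Siah1a and 10.9% or less for the rest. Cd81 was most like Ddx39b (0.987), Tmbim4 (0.985) and Ranbp1 (0.985), and Cd82 like Arl6ip1 (0.981), Nip7 (0.981) and Tmed5 (0.979). Npc1, the late endosomal cholesterol transporter, was among the 3 for both Cd9 (0.913, with Siah1a at 0.914 and Tsen34 at 0.911) and Cd151 (0.947, with Paip1 at 0.960 and Rac1 at 0.944).

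Summed markers of further cell types, in ppm of a library's summed linear values, were as follows. Astrocyte markers (10 of 10 measured) held 191 to 245 ppm in PDGFRa-GFP, 169 to 212 in PLP-GFP and 181 to 207 in NDRG1-eGFP libraries. Neuron markers (7 of 10) held 64.1 to 92.5, 54.2 to 140 and 73.0 to 115 in the same order. Endothelial markers (2 of 10) held 8.77 to 13.7, 14.9 to 19.9 and 12.1 to 21.0, and pericyte markers (2 of 7) 0.597 to 2.86, 1.28 to 14.6 and 0.064 to 5.02. Mature oligodendrocyte markers (11 of 11) held 37000 to 43400, 37000 to 46200 and 41800 to 48900.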
